A study of Homo sapiens with 6 samples.

Results

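Protocadherin genes are the 65 genes, of 16832 listed, whose symbol starts with PCDH. They fall into the clustered alpha genes (PCDHA, 15 genes), beta genes (PCDHB, 16 genes) and gamma genes (PCDHG, 22 genes) and 12 non-clustered genes. RNA was sequenced from U251, a line established from a human glioma, wild type in genotype per the labels. Of the 6 libraries, 3 came from cells that received the small-molecule mixture SLCDS over 18 days (its components are not named in the labels) and 3 from cells given PBS in its place. The series title describes the treated cells as neuronal-like. The labels do not say whether the replicates of a group were separate cultures, so p-values measure only the spread between these libraries, which may be technical.

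Protocadherins are cell surface adhesion proteins of the cadherin superfamily and are most abundant in the nervous system. The clustered genes lie next to each other on chromosome 5. In neurons each cell transcribes its own mixture of them, chosen by promoter, and the proteins of that mixture bind like to like, so that the branches of a neuron recognise and avoid each other. Every alpha or gamma transcript joins its own first exon to constant exons shared by its cluster, while each beta gene has a single coding exon. The non-clustered genes are scattered over the genome, each with its own promoter, and several guide axon growth through the actin cytoskeleton.

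Most clustered protocadherin promoters carry a short conserved element whose core is CGCT, near which CTCF and cohesin bind and loop the promoter to an enhancer. The element is shown for the 3 most abundant alpha genes and for 4 beta and 4 gamma genes described below, since it is the sequence these promoters share. The sequences are 36 bases from RefSeq on GRCh38.p14, plus strand, 5′ to 3′, with the core in capitals.
PCDHA1, chr5:140786082-140786117: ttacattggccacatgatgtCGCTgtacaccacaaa
PCDHA8, chr5:140841126-140841161: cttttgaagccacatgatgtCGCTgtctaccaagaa
PCDHA7, chr5:140834168-140834203: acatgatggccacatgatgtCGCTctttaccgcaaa
PCDHB2, chr5:141094540-141094575: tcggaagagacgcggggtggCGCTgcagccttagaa
PCDHB7, chr5:141172562-141172597: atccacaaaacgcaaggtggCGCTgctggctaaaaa
PCDHB13, chr5:141213861-141213896: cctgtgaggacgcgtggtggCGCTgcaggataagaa
PCDHB14, chr5:141223259-141223294: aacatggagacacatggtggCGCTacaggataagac
PCDHGA1, chr5:141330399-141330434: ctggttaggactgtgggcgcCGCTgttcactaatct
PCDHGB1, chr5:141350021-141350056: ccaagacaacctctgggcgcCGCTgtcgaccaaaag
PCDHGA4, chr5:141354956-141354991: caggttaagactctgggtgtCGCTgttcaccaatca
PCDHGC3, chr5:141475876-141475911: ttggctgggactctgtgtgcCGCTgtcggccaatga

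The sequences shown come from windows that held a longer form of the element, chosen for each cluster after the windows were seen. Their likeness within a cluster and difference between clusters thus follow in part from that choice. PCDHGB2 and PCDHGA9, described below, did not hold the gamma form and are not shown. RefSeq promoter windows, from 250 bases before to 50 bases after a gene's start, were matched by symbol for 57 of the 65 genes, with 64 windows in all. PCDH10, PCDH20, PCDHA3, PCDHA13, PCDHB6, PCDHB11, PCDHGA12 and PCDHGC5 had no entry. The core CGCT, searched on both strands, was in 12 of 13 alpha windows, all 14 beta windows and all 25 gamma windows, in 10 of 12 windows of non-clustered genes, and in 70% of all 35116 promoter windows. Longer forms were chosen after the windows were seen, so their counts are a description. GATGTCGCT was in 9 of 13 alpha windows and 0.105% of all windows, and GGTGGCGCT in 13 of 14 beta windows and 0.501% of all. The core followed by GT, any 3 bases and C was in 18 of 25 gamma windows and 4.24% of all. This last form also matched 6 of the alpha windows. All of these longer forms contain the core and so overlap it.

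Distances from the core to the start site were taken only in genes whose window held the longer form of their cluster. Genes without that form were left out, among them PCDHGB2 (core at -199 bases from the start), PCDHB1 (-105 and -84) and PCDHGA9 (-48). In the genes kept, distances were taken from the nearest RefSeq start site of each gene. The median distance before that start was 48 bases in 9 alpha genes, 61 in 13 beta genes and 58 in 15 gamma genes. The range was 38 to 81 bases for alpha and 39 to 95 for gamma genes. From a second RefSeq start site the same core lay 220 bases away in PCDHGB1 and 206 in PCDHGC4. For beta genes it ran from 79 bases before the start site to 3 bases after it, the latter in PCDHB8. A CTCF core (CCA, any 2 bases, AG, any 2 bases, GGC) was in the window of PCDHB9, in no other clustered window, and in 2.41% of all windows, searched on both strands. Only this exact form was searched, so windows without it may still hold CTCF sites. The GC box GGGCGG was in 45% of all windows but in 1 of 13 alpha, 0 of 14 beta and 1 of 25 gamma windows, against 5 of 12 windows of non-clustered genes. TATAAA was in 3 alpha, 1 beta, 2 gamma and 2 non-clustered windows and in 11.5% of all windows.

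**Figure D1:**
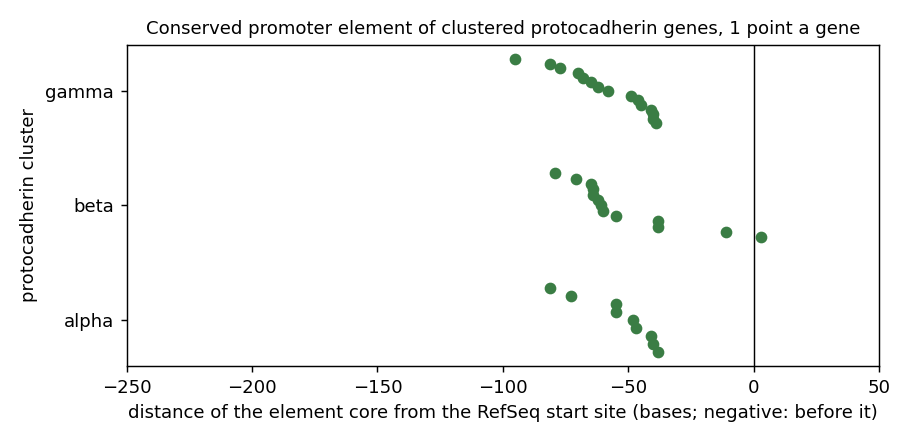
Distance in bases from the gene's nearest RefSeq start site (0, vertical line) to the core of the conserved promoter element, 1 point a gene, for 9 alpha, 13 beta and 15 gamma genes. Only genes whose window held the longer form of their cluster are shown. Most points lie between 38 and 95 bases before the start, and the beta points of PCDHB5 (11 bases before) and PCDHB8 (3 bases after) lie nearest to it.

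The files hold 1 FPKM value per gene and library, that is, fragments scaled by transcript length and library depth. Fragment numbers could be read back from the steps between values, and each library held 15588000 to 16450700 fragments over the genes read back. An FPKM of 1 on a transcript of 4000 bases stood for 65.1 to 68.7 fragments. Control replicate 3 stood apart: over tested genes its log2 values correlated with the other controls at 0.976 and 0.977, against 0.997 between control replicates 1 and 2 and between every pair of SLCDS libraries. Results are therefore given with and without it. The glial and glioma markers GFAP, VIM, NES, SOX2 and S100B were all above an FPKM of 1 in every library. Their levels were not all equal between the groups: some differed, and in both directions. Of 8 neuronal markers 3 were above 1 in every library, and RBFOX3, DCX, SYN1 and STMN2 were under 1 in every library. The summed neuronal level was 74.8 to 77.0 FPKM in SLCDS and 82.3 to 89.1 in control libraries. Its members differed in direction. TUBB3 was lower in SLCDS (28.7 to 30.8 against 36.0 to 45.3 FPKM). At low levels, SYP (1.01 to 1.20 against 0.456 to 0.999), SYN1 (0.796 to 0.998 against 0.459 to 0.613) and STMN2 (0.0590 to 0.180 against 0) were higher. MAP2, RBFOX3, DCX and NEFL overlapped between the groups.

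A gene was tested where at least 3 libraries reached an FPKM of 1, which kept 27 of the 65 protocadherin genes: 0 alpha, 14 beta, 6 gamma and 7 non-clustered. None of them was kept through 1 group only. Of the 27, PCDH1 and PCDH18, both non-clustered, were higher in SLCDS at an adjusted p under 0.05, none was lower, and 25 did not pass (limma, Benjamini-Hochberg over 11506 genes). Over all tested genes 6.09% passed, 4.28% higher and 1.82% lower, so 2 of 27 is close to the background. At an unadjusted p under 0.05 in the same limma fit, 3 of the 27 were lower (PCDH17, PCDH20 and PCDHB7), against 7.81% of all tested genes, and voom on whole fragments also called 0 lower. Without control replicate 3, 11 of the 27 passed: PCDH1, PCDH10 and PCDH18 were higher, and PCDH17, PCDH20, PCDHB3, PCDHB7, PCDHB8, PCDHB13, PCDHGA1 and PCDHGA4 were lower. In that fit 27.7% of all tested genes passed, 16% higher and 11.8% lower. Only PCDH1 passed without SLCDS replicate 2 and without SLCDS replicate 3. With fits added after the data were seen, 6 of the 27 passed with each library's trend with length and GC removed (18% of all genes tested), 2 by voom on whole fragments (6.17%) and 12 by voom without control replicate 3 (31.2%). A fit with the replicate number as a block called 2 of the 27 (3.95%). SLCDS and control libraries were fully apart in FPKM for 5 of the 27 genes (PCDH1, PCDH10 and PCDH18 higher in SLCDS, PCDH20 and PCDHB7 lower), against 29.1% of all tested genes. In bulk RNA, fewer cells with a transcript and less transcript per cell cannot be told apart.

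**Figure D2:**
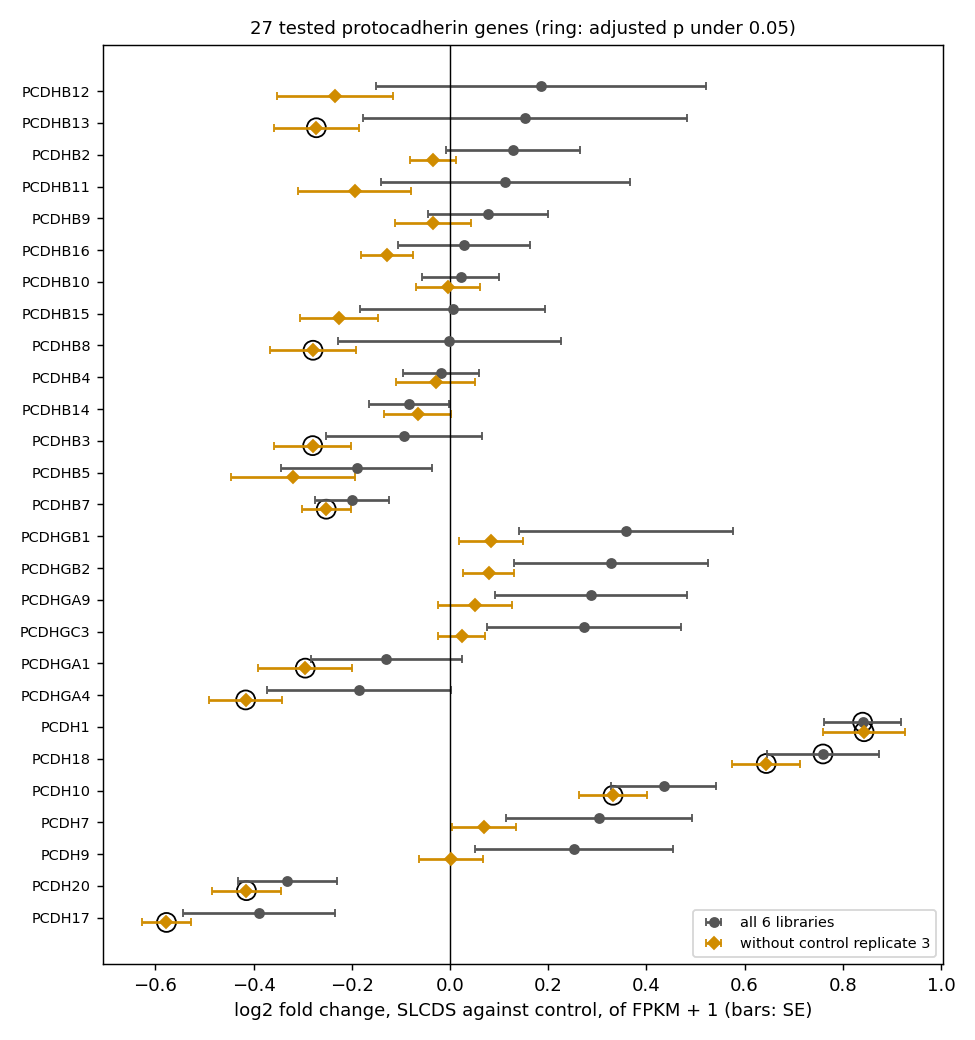
Log2 fold change of FPKM + 1, SLCDS against control, for the 27 tested protocadherin genes, with the standard error as a bar, over all 6 libraries (grey circles) and without control replicate 3 (orange diamonds); a ring marks an adjusted p under 0.05. All 14 beta genes lie below 0 without control replicate 3, and PCDH1 has nearly the same value in both fits.

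PCDH1, a member of the delta protocadherins best known as an adhesion protein of airway epithelium and an entry receptor of hantaviruses, had the largest log2 fold change of the 27 tested genes. It stood at 2.60, 2.59 and 3.02 FPKM in SLCDS replicates 1 to 3 and at 1.10, 1.06 and 1.09 FPKM in control replicates 1 to 3. Every SLCDS library was thus above every control, and control replicate 3 was level with the other controls. In fragments these were 414, 405 and 489 against 169, 163 and 175. The means were 2.74 ± 0.24 FPKM (SD, n = 3) and 1.08 ± 0.02 (SD, n = 3), a ratio of 2.52. Its log2 fold change of FPKM + 1 was 0.84 (SE 0.08, limma adjusted p = 0.00142), and it passed under all 19 alternatives in which it was tested, with adjusted p from 3.6e-09 to 0.0138.

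PCDH18, a delta protocadherin whose cytoplasmic tail binds the adaptor DAB1, was also higher. It measured 4.93, 5.44 and 5.46 FPKM in the SLCDS libraries and 2.99, 3.03 and 2.15 FPKM in controls, so the groups were apart and control replicate 3 was the lowest library. The log2 fold change was 0.76 (SE 0.11, limma adjusted p = 0.00979). Leaving out control replicate 3 gave 0.64 (limma adjusted p = 0.000113). Its call was lost without SLCDS replicate 2 (limma adjusted p = 0.0621) and without SLCDS replicate 3 (0.0618) and held under 17 of 19 alternatives.

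PCDH10, which recruits the WAVE actin complex and supports axon growth, was at 4.50, 5.02 and 4.62 FPKM in SLCDS and at 3.54, 3.53 and 2.66 FPKM in controls. Its groups did not overlap, yet its log2 fold change of 0.44 did not pass over all libraries (limma adjusted p = 0.0627). It was 0.33 without control replicate 3, with a limma adjusted p of 0.00617.

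PCDH17 and PCDH20 had lower means in SLCDS, and neither passed over all libraries. PCDH17, known for joining growing axons and for a place at synapses, was the most abundant non-clustered gene. Its levels were 9.87, 10.2 and 9.76 FPKM in SLCDS and 15.3, 15.3 and 10.01 FPKM in controls, so control replicate 3 lay at the level of the SLCDS libraries and away from the other controls. The log2 fold change was -0.39 (SE 0.15, limma adjusted p = 0.235) with that library and -0.58 (SE 0.05, limma adjusted p = 2.7e-05) without it. PCDH20 had 6.78, 6.26 and 5.74 FPKM in SLCDS and 8.58, 8.74 and 7.12 FPKM in controls, with every control above every SLCDS library. Its log2 fold change was -0.33 (limma adjusted p = 0.126), and -0.41 without control replicate 3 (0.00196).

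PCDH7 and PCDH9, both delta protocadherins of the subgroup that holds PCDH1, passed in neither fit. PCDH7, whose tail binds protein phosphatase 1, measured 6.10, 6.59 and 5.99 FPKM in SLCDS and 6.04, 5.73 and 3.23 FPKM in controls. PCDH9 measured 6.79, 7.19 and 6.77 FPKM in SLCDS and 6.54, 7.28 and 3.69 FPKM in controls. In both genes control replicate 3 was the only library clearly below the rest. Their log2 fold changes were 0.30 and 0.25 (limma adjusted p = 0.468 and 0.583), and 0.07 and 0.002 without control replicate 3 (0.470 and 0.983).

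The other 5 non-clustered genes were under the filter, the highest at 0.174 FPKM in any library. PCDH19, a gene of inherited epilepsy, averaged 0.12 FPKM, with 18, 24 and 26 fragments in SLCDS and 16, 11 and 10 in controls. PCDH12, an endothelial protocadherin, had 3, 6 and 6 fragments in SLCDS and 1 in each control. PCDH8, PCDH15, a part of the tip links of hair cells, and PCDH11X were at 2 fragments or fewer in every library where fragments could be read. These numbers are too low for a comparison at this depth.

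**Figure D3:**
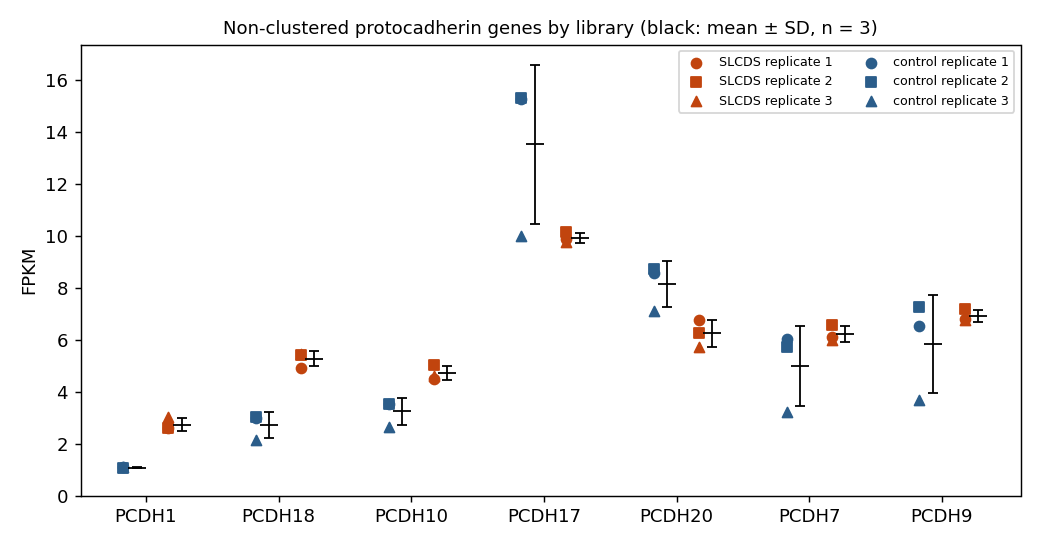
FPKM of the 7 tested non-clustered protocadherin genes in each library (symbols, blue for control and orange for SLCDS) with mean and SD of each group (black, n = 3). The 3 SLCDS libraries lie together for each gene, and control replicate 3 (blue triangle) lies below the other controls for every gene but PCDH1.

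The gamma genes held the most abundant protocadherin, PCDHGC3. This C-type gene, at the 3′ end of the cluster, binds AXIN1 and dampens WNT signalling. It stood at 71.8, 78.0 and 77.3 FPKM in SLCDS and at 76.7, 72.2 and 43.9 FPKM in controls, and made up 59.8% to 61.9% of the summed gamma FPKM of a library. The 5 libraries other than control replicate 3 lay within 71.8 to 78.0 FPKM. The log2 fold change was 0.27 (SE 0.20, limma adjusted p = 0.542) over all libraries and 0.02 (SE 0.05, adjusted p = 0.751) without control replicate 3. Its share of the summed FPKM of all protocadherin genes was 24.4% to 29.4%.

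PCDHGB2 and PCDHGB1 came next, followed by PCDHGA9; all encode variable gamma isoforms used in homophilic recognition. PCDHGB2 measured 22.6, 24.5 and 23.4 FPKM in SLCDS and 22.9, 21.6 and 12.8 FPKM in controls. PCDHGB1 measured 8.33, 9.20 and 8.33 FPKM in SLCDS and 8.35, 7.79 and 4.13 FPKM in controls. PCDHGA9 averaged 7.62 ± 0.49 FPKM in SLCDS and 6.25 ± 1.95 in control (SD, n = 3 each). All overlapped between the groups, and in each control replicate 3 was the lowest library. Their log2 fold changes were 0.33, 0.36 and 0.29 over all libraries and 0.08, 0.08 and 0.05 without control replicate 3, and none passed in either fit, with limma adjusted p from 0.291 to 0.665.

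PCDHGA4 and PCDHGA1, near the 5′ end of the gamma cluster, had the opposite sign. Position did not set them apart, since PCDHGB1 lies between them and PCDHGB2 directly after PCDHGA4. PCDHGA4 was at 2.49, 2.53 and 2.41 FPKM in SLCDS and at 3.85, 3.43 and 1.87 FPKM in controls, so the SLCDS libraries lay between control replicate 3 and the other controls. Its log2 fold change was -0.19 (limma adjusted p = 0.673) over all libraries and -0.42 (adjusted p = 0.00268) without control replicate 3. PCDHGA1 was at 1.39, 1.62 and 1.68 FPKM in SLCDS and at 2.40, 1.90 and 1.23 FPKM in controls, with a log2 fold change of -0.13 (limma adjusted p = 0.724). In the fit without control replicate 3 it was -0.29 (limma adjusted p = 0.0453). So 2 of 6 tested gamma genes were lower in that fit, against 11.8% of all tested genes, and 4 of 6 lay at or slightly above 0.

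The remaining 16 gamma genes were under the filter, with mean FPKM from 0.0541 to 0.718 and a median of 0.230. The highest were PCDHGB3, at 0.718 FPKM, and PCDHGA5, at 0.712 FPKM. PCDHGC4, a C-type gene needed for survival of cortical interneurons, averaged 0.473 FPKM, and PCDHGC5 averaged 0.606 FPKM. The gamma C-type genes thus differed widely, with PCDHGC3 far above both of its neighbours; PCDHGC4 and PCDHGC5 were chosen for naming after their values were seen.

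The beta genes were the most evenly expressed cluster, with 14 of 16 tested and the top gene, PCDHB7, holding 15.1% to 20.5% of the summed beta FPKM. PCDHB7 stood at 15.5, 14.6 and 14.9 FPKM in SLCDS and at 18.4, 17.7 and 16.1 FPKM in controls. All 3 SLCDS libraries were below all 3 controls. The log2 fold change was -0.20 (SE 0.08, limma adjusted p = 0.210), and -0.25 (SE 0.05, adjusted p = 0.00435) without control replicate 3. PCDHB2 was at 14.6, 14.5 and 14.6 FPKM in SLCDS and at 14.9, 15.01 and 10.4 FPKM in controls, and PCDHB14 at 13.2, 11.4 and 11.3 against 12.5, 12.6 and 13.1 FPKM. Neither passed in either fit. PCDHB14 was the only tested beta gene with control replicate 3 above both other controls.

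PCDHB3, PCDHB8 and PCDHB13 had values in SLCDS between control replicate 3 and the other controls. PCDHB13 measured 3.23, 3.88 and 3.95 FPKM in SLCDS and 4.89, 4.41 and 1.33 FPKM in controls. PCDHB8 measured 3.59, 4.48 and 4.34 FPKM in SLCDS and 5.02, 5.41 and 2.49 FPKM in controls. PCDHB3 measured 2.91, 2.63 and 3.04 FPKM in SLCDS and 3.51, 3.85 and 2.18 FPKM in controls. Over all libraries their log2 fold changes were 0.15, -0.0011 and -0.09 for PCDHB13, PCDHB8 and PCDHB3, with limma adjusted p of 0.854, 0.999 and 0.813. They were -0.27, -0.28 and -0.28 without control replicate 3, with limma adjusted p of 0.0407, 0.0381 and 0.0242.

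The other 8 tested beta genes passed in neither fit, and the difference between their group means was smaller than the spread within at least 1 group. PCDHB9 averaged 11.9 ± 1.23 FPKM in SLCDS and 11.3 ± 1.64 in control, PCDHB16 11.3 ± 0.15 and 11.3 ± 2.21, and PCDHB10 9.68 ± 0.68 and 9.51 ± 0.36 (SD, n = 3 each). PCDHB4 averaged 2.13 ± 0.18 FPKM in SLCDS and 2.17 ± 0.05 in control, and PCDHB15 1.93 ± 0.10 and 1.99 ± 0.77 (SD, n = 3 each). PCDHB12 averaged 2.97 ± 0.58 and 2.74 ± 1.60 FPKM, PCDHB11 0.996 ± 0.258 and 0.914 ± 0.624, and PCDHB5 0.768 ± 0.250 and 1.02 ± 0.35 FPKM in SLCDS and control (SD, n = 3 each). PCDHB11 and PCDHB5 rest on few fragments, 14 to 91 and 32 to 76 a library.

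The signs of the beta genes depended on control replicate 3. Over all libraries 8 of 14 tested beta genes had a positive log2 fold change, with a median of 0.01. Without that library 14 of 14 were negative, with a median of -0.21, and 4 were called lower, against 11.8% of all tested genes. The median over all tested genes was 0.0004 with it and 0.002 without it. Tested gamma genes had a median of 0.28 with it and 0.04 without it, and tested non-clustered genes 0.30 and 0.07.

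Control replicate 3 was low for most protocadherin genes. Its FPKM over the mean of control replicates 1 and 2 had a median of 1.01 over all tested genes. For the 6 gamma genes the ratio lay within 0.511 to 0.590. For the 14 beta genes it ran from 0.156 to 1.04 with a median of 0.643, and for non-clustered genes from 0.535 to 1.01 with a median of 0.715. The lowest ratios were those of 3 neighbours in the beta cluster, PCDHB11 (0.156), PCDHB12 (0.256) and PCDHB13 (0.286), while the next gene along, PCDHB14, had the highest (1.04). PCDHB11 had 14 fragments in control replicate 3 and 81 and 91 in the other controls. Control replicate 3 was the lowest of the 6 libraries for 19 of the 27 protocadherin genes (9 of 14 beta, 6 of 6 gamma, 4 of 7 non-clustered) and for 35.6% of all tested genes. The labels name nothing that sets this library apart, and the cause was not tested.

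**Figure D4:**
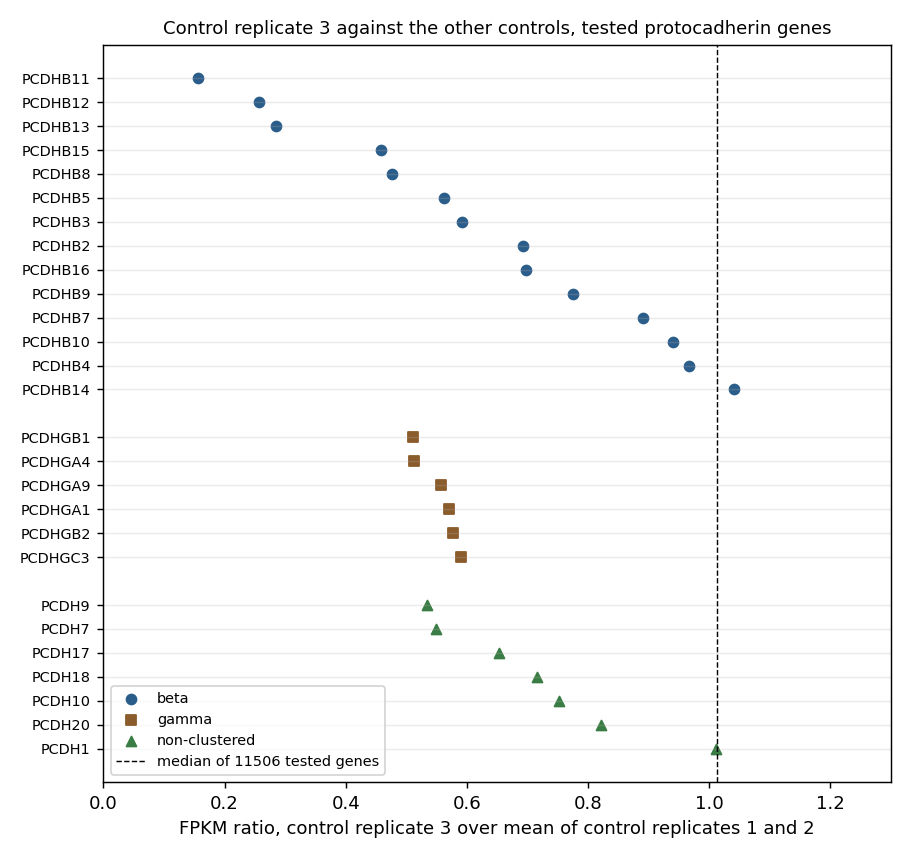
Ratio of FPKM in control replicate 3 to the mean of control replicates 1 and 2 for the 27 tested protocadherin genes, 1 point a gene (circles beta, squares gamma, triangles non-clustered), with the median of 11506 tested genes as a dashed line. Gamma genes lie in a narrow band from 0.511 to 0.590, and beta genes spread from 0.156 to 1.04.

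The alpha cluster was nearly silent in every library. Its 15 genes together summed to 1.15, 1.297 and 1.14 FPKM in SLCDS and 1.13, 1.61 and 0.723 FPKM in controls. PCDHA1, the most abundant, stood at 0.319, 0.335 and 0.354 FPKM in SLCDS and at 0.428, 0.516 and 0.221 FPKM in controls, which is 30, 31 and 34 against 39, 47 and 21 fragments. PCDHA8 had 13, 20 and 16 fragments in SLCDS and 7, 27 and 9 in controls, and PCDHA7 had 14, 11 and 12 against 12, 15 and 9. The groups overlapped for all 3 genes. PCDHAC2, a C-type gene used by serotonergic neurons, was chosen after its values were seen: it had 9, 20 and 7 fragments in SLCDS and 5 in each control, counts too low to compare at this depth.

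In summed FPKM the beta cluster stood at 93.3, 96.8 and 94.1 in SLCDS and at 107, 103 and 78.4 in controls. Gamma genes summed to 119, 130 and 126 FPKM in SLCDS and to 128, 119 and 71.0 in controls. Non-clustered genes summed to 41.7, 43.5 and 41.6 FPKM in SLCDS and to 44.2, 44.8 and 30.04 in controls. In all of these classes the lowest sum was that of control replicate 3, and the SLCDS libraries lay within a narrower range than the controls. The log2 ratio of SLCDS to control sums was -0.02 for beta, 0.23 for gamma, 0.09 for non-clustered and 0.05 for alpha genes. It was -0.15, 0.01, -0.07 and -0.20 without control replicate 3. Of the 2 beta genes under the filter, PCDHB6 averaged 0.845 FPKM, and PCDHB1 had at most 2 fragments in a library. Across all 65 genes 38 were under the filter, and none was at 0 in every library.

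**Figure D5:**
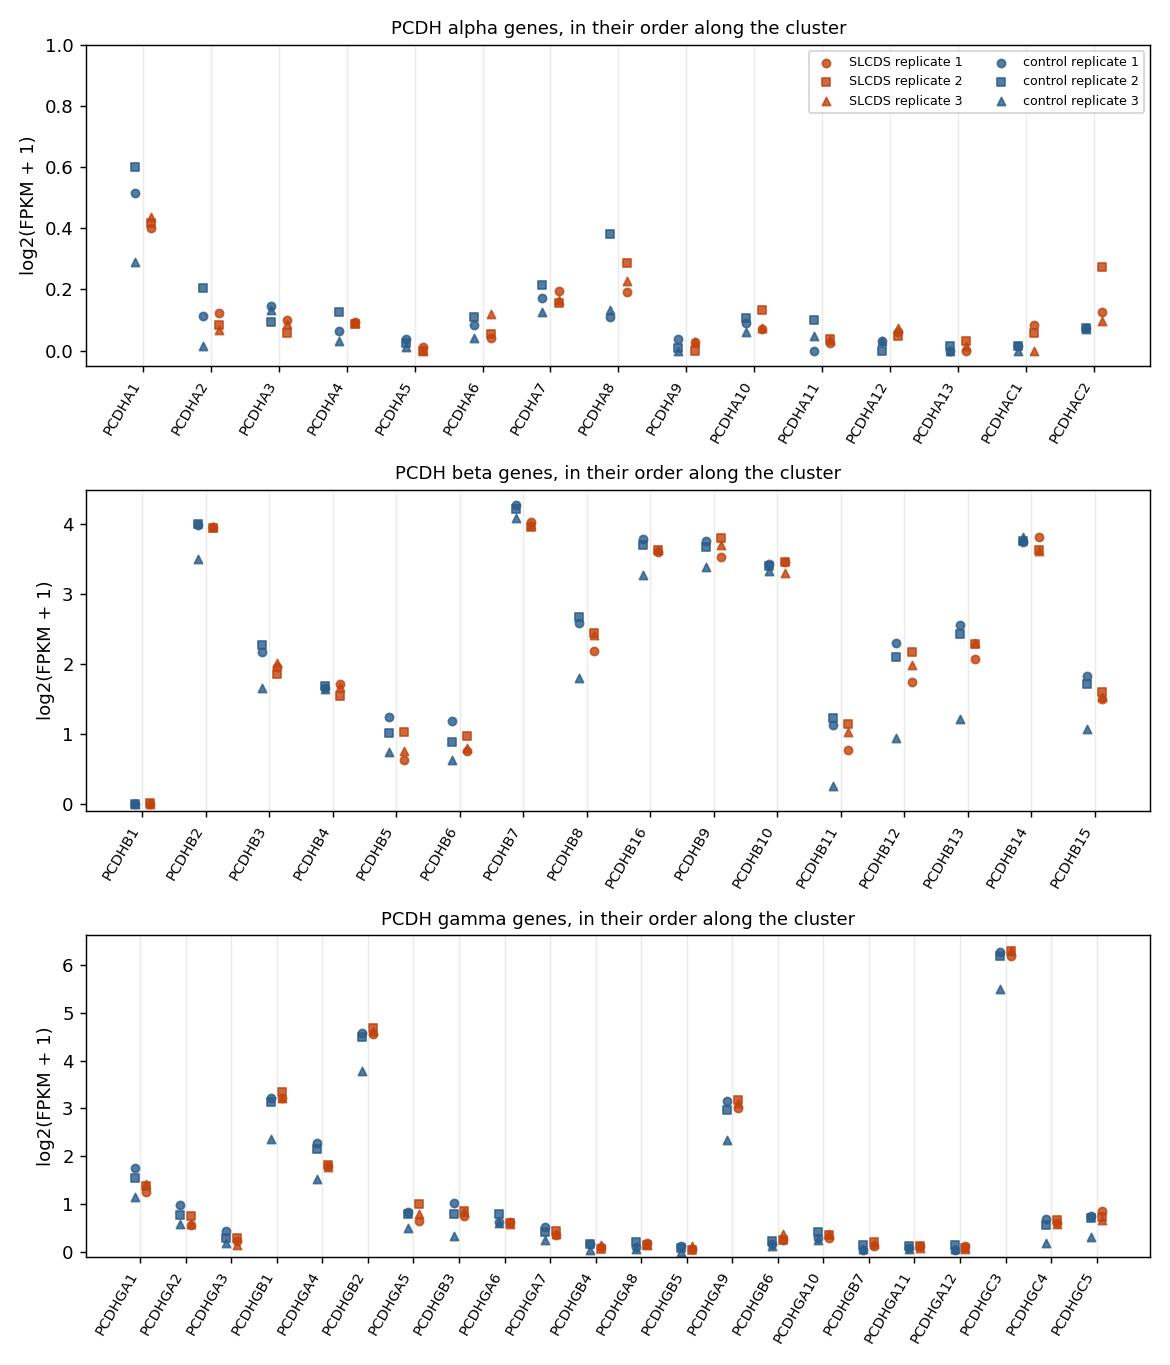
log2(FPKM + 1) of the 15 alpha, 16 beta and 22 gamma protocadherin genes in their order along chromosome 5, 1 symbol a library (blue control, orange SLCDS, shape by replicate); the vertical scales of the panels differ. Alpha genes stay under an FPKM of 1, most beta genes are above it, and the gamma signal sits in a few genes, led by PCDHGC3.

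Clustered genes share sequence, so levels of single alpha and gamma genes, and of some beta genes, are uncertain. In the longest coding transcripts of GENCODE release 29, a median of 58.0% of 50-base stretches of an alpha gene and 47.4% of a gamma gene also occurred in another protocadherin. For beta genes the median was 13.7%, with 45.7% in PCDHB8, whose closest match was PCDHB13 (33.0%), and 35.4% in PCDHB10. No non-clustered gene shared such a stretch. How fragments from shared stretches were assigned is not given in the sources used here, so whether the 6 gamma ratios in control replicate 3 are independent measurements is not known.

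Among the factors known to bind, loop, methylate or silence clustered protocadherin promoters, 2 of 25 tested genes were higher and none was lower, close to the 4.28% and 1.82% of all tested genes, with a median log2 fold change of 0.06 beside 0.0004 over all genes (limma; 0 lower also at an unadjusted p under 0.05 and by voom). UHRF1, which brings DNA methyltransferase to newly copied DNA, was at 2.11, 2.28 and 2.35 FPKM in SLCDS and at 0.994, 0.995 and 0.779 FPKM in controls. The log2 fold change was 0.76 (limma adjusted p = 0.00251), and it passed under all 19 alternatives in which it was tested. All its control values were under an FPKM of 1, so UHRF1 met the filter through the SLCDS libraries only. Its call therefore rests on a filter passed only in the group where it was high. DNMT3B, a de novo DNA methyltransferase, averaged 2.69 ± 0.13 FPKM in SLCDS and 1.67 ± 0.13 in control (SD, n = 3 each), with a log2 fold change of 0.47 (limma adjusted p = 0.0143). Its call was lost with the libraries scaled to equal sums, with the replicate block and without each SLCDS library in turn. CTCF, named after its values were seen because it binds near the element shown above, had a limma adjusted p of 0.991. CTCF averaged 22.7 ± 0.28 FPKM in SLCDS and 22.7 ± 0.86 in control (SD, n = 3 each). Without control replicate 3, 3 of the 25 were higher and 5 lower, against 16% and 11.8% of all tested genes, the latter including SMCHD1, a silencer of the clusters, at a log2 fold change of -0.21 (limma adjusted p = 0.0230; chosen after its values were seen).

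Of 29 tested partners and signalling genes of protocadherins, 1 was higher and none was lower by limma, against 4.28% and 1.82% of all tested genes, with a median of -0.04. At an unadjusted p under 0.05, 3 were lower, against 7.81% of all tested genes, and by voom 0. FYN, a kinase held by alpha protocadherin tails, averaged 63.1 ± 2.75 FPKM in SLCDS and 48.2 ± 1.95 in control (SD, n = 3 each), with a log2 fold change of 0.38 (limma adjusted p = 0.0233). That call was lost with the replicate block and without each library in turn except control replicate 3. The most abundant genes of the list were MARCKS, an actin regulator acting downstream of gamma protocadherins, and CTNNB1, beta-catenin. MARCKS averaged 267 ± 2.61 FPKM in SLCDS and 315 ± 13.8 in control, and CTNNB1 143 ± 2.37 and 144 ± 1.78 (SD, n = 3 each), with limma adjusted p of 0.170 and 0.958. Without control replicate 3, 3 of the 29 were higher and 6 lower, against 16% and 11.8% of all tested genes, MARCKS among the latter (log2 fold change -0.21, limma adjusted p = 0.00347).

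Outside the protocadherins, 5 of 18 tested cadherin genes were higher and none was lower by limma, against 4.28% and 1.82% of all tested genes, with a median of 0.28, which was 0.05 without control replicate 3. At an unadjusted p under 0.05, 2 were lower, against 7.81% of all tested genes, and by voom 0. CDH5, the cadherin of endothelial junctions, rose from 1.91 ± 0.63 to 4.81 ± 0.44 FPKM (SD, n = 3 each; log2 fold change 1.02, limma adjusted p = 0.0106). The other endothelial markers PECAM1, VWF and KDR were under an FPKM of 1 in every library. DCHS1, a large cadherin of planar polarity, averaged 6.44 ± 0.28 FPKM in SLCDS and 3.21 ± 0.86 in control, CDH13, a cadherin without a transmembrane part, 3.44 ± 0.24 and 1.93 ± 0.08, and CDH15, the muscle cadherin, 4.77 ± 0.35 and 2.98 ± 0.61 (SD, n = 3 each). Their log2 fold changes were 0.84, 0.60 and 0.54, with limma adjusted p of 0.0196, 0.00492 and 0.0485. The fifth was CDH4. CDH13 passed under all 19 alternatives in which it was tested, CDH5 was lost without each SLCDS library in turn, and CDH15 passed under 6 of 19. DCHS1 was lost with the libraries scaled to equal sums, without each SLCDS library in turn and without control replicate 2, with limma adjusted p up to 0.1003. CDH4 passed under 14 of 20. Without control replicate 3, 6 were higher and 4 lower, against 16% and 11.8% of all tested genes.

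Marker genes of other cell types moved with the groups in part, and their part in the protocadherin values was not tested. The endothelial sum was 4.93 to 5.87 FPKM in SLCDS and 2.09 to 3.00 in controls, carried by CDH5; the other 3 markers summed to 0.391 to 0.553 and 0.383 to 0.813 FPKM. The fibroblast sum was 2.28 to 2.62 and 1.32 to 1.495 FPKM, with DCN and LUM under 1; PDGFRB was higher in SLCDS libraries (1.66 to 1.84 against 0.300 to 0.439 FPKM) and COL1A1 lower (0.462 to 0.663 against 0.881 to 1.16 FPKM). The microglial and myeloid sum was 3.79 to 4.95 FPKM in SLCDS and 3.01 to 3.48 in controls, most of it CD68 (3.44 to 4.71 and 2.66 to 2.85 FPKM). MBP and MOG of oligodendrocytes, PTPRC, AIF1 and CSF1R of microglia and EPCAM and CDH1 of epithelium were under 1 FPKM in every library.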

How the data were processed

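Per the labels' protocols, RNA-seq libraries (VAHTS Universal V6) were made from TRIzol-extracted total RNA. The authors deposited 1 table of FPKM values for each of 6 libraries. Which aligner, counter and annotation made them is not given in the sources used here. Mouse genome builds (mm10 and GRCm38) stand in the submitters' processing notes, although the line and the symbols are human, so no coordinates of the files' genes are used. Members, lists and the naming rule were chosen with earlier results of these data known.

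The 11506 genes that reached an FPKM of 1 in at least 3 libraries were compared as log2(FPKM + 1) by limma 3.58.1 (R 4.3.3). Its variance prior followed mean level, tests were 2-sided, and p-values were adjusted by Benjamini-Hochberg over all 11506, with 0.05 as threshold. On this scale a fold change understates that of low genes. The fit was tested on simulated data with independent normal noise in every gene and library. No simulated library deviated over many genes together, as control replicate 3 does. The simulation therefore cannot show how the fit behaves with such a library. Every tested protocadherin gene is named, with library values for those that passed with or without control replicate 3 and for the 3 most abundant of each class. Of each other list up to 4 called genes are named, or the 2 most abundant where fewer than 2 were called.

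Dividing FPKM by its steps gave whole fragments, within 0.02 of a fragment, for 15898 of 15906 genes above 0 in 2 or more libraries (99.9%), and for 64 of 64 such protocadherin genes. The labels do not say whether replicate numbers pair the libraries. Deviations of same-numbered libraries from their group means correlated at -0.33, 0.36 and 0.07. SLCDS replicate 2 correlated alike with control replicates 1 (0.37) and 2 (0.36), so these values cannot decide it. Alternatives were other pseudocounts (0.1 and 0.5), filters, scalings and variance priors, quantile normalization, a replicate block and leaving out each library. Added after the data were seen were each library's trend with length and GC removed (natural splines with 4 degrees of freedom) and limma voom on whole fragments with and without control replicate 3. A comparison of protein sequences was not made. The summed level of 1 marker list is not reported here.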

Additional observations from a re-analysis of the deposited data

How the results depend on the processing

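Over 20 alternatives, 465 of 527 protocadherin log2 fold changes kept their sign and side of the threshold, 38 changed sign and 2 (both PCDH18) no longer passed. In all 24 newly passed, 2 of them with the other sign (PCDHB13 without control replicate 3, by limma and by voom); the cause of these changes was not tested. The number called was 701 over all genes, 2 protocadherins, 5 other cadherins, 2 promoter regulators and 1 partner gene. With a mean FPKM of at least 5, where PCDH1 and PCDH18 are not tested, these were 324 over all genes, 0 protocadherins, 1 cadherin and 0 regulators. With the length and GC trend removed they were 2025 over all genes, 6 protocadherins (PCDH1, PCDH10, PCDH17, PCDH18, PCDH20 and PCDHB7) and 5 partners. With voom without control replicate 3 they were 3589 over all genes, 12 protocadherins, 11 cadherins, 10 regulators and 10 partners; voom over all libraries called 709 genes and 2 protocadherins. The replicate block gave 455 over all genes, 2 protocadherins, 1 regulator and 0 partners. Since it is not known whether the numbers pair the libraries, this says nothing of weaker effects. Scaling to equal sums left 1 regulator. Leaving out each library gave 276 to 3191 over all genes, 1 to 11 protocadherins, 1 to 10 cadherins, 1 to 8 regulators and 0 to 9 partners, the highest of each without control replicate 3. With voom without control replicate 3, values were -0.0055 for PCDHB10, -0.38 for PCDHB11, -0.31 for PCDHB12, -0.34 for PCDHB13, -0.33 for PCDHB15, -0.14 for PCDHB16, -0.037 for PCDHB2 and -0.038 for PCDHB9. With the trend removed they were -0.0040 for PCDHB10, -0.042 for PCDHB15, -0.042 for PCDHB16 and 0.0051 for PCDHB8. Quantile normalization gave -0.058 for PCDHB11 and -0.075 for PCDHB15, which was -0.0051 with median-of-ratios and -0.0074 with TMM factors. Scaling to equal sums gave 0.0025 for PCDHB4 and 0.034 for PCDHB8. PCDHB8 was 0.013 and 0.0053 with pseudocounts of 0.1 and 0.5 and 0.020 with voom. Leaving out each library in turn gave -0.0053 to 0.076 for PCDHB10, -0.19 to 0.29 for PCDHB11, -0.23 to 0.45 for PCDHB12, -0.27 to 0.40 for PCDHB13, -0.23 to 0.15 for PCDHB15, -0.13 to 0.13 for PCDHB16, -0.034 to 0.21 for PCDHB2, -0.28 to 0.025 for PCDHB3, -0.051 to 0.029 for PCDHB4, -0.28 to 0.16 for PCDHB8, -0.034 to 0.16 for PCDHB9 and -0.29 to 0.010 for PCDHGA1. Log2 ratios of class sums ran from -0.20 to 0.37 for alpha, -0.15 to 0.059 for beta, 0.012 to 0.39 for gamma and -0.074 to 0.19 for non-clustered genes on leaving out each library, lowest without control replicate 3. With 3 libraries a group, and at the fragment numbers of the alpha cluster, small differences were not detectable.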
